A study of Mus musculus with 16 samples.

Results

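The 10 genes described here encode lipid-sensing nuclear receptors, the bile acid receptor, the liver X receptors (LXRs), the peroxisome proliferator-activated receptors (PPARs) and the retinoid X receptors (RXRs), in mouse prostate tumours. They were taken by name from the receptor families, with no threshold on a measured value but with earlier results of these data known, and are 10 of the 55414 genes counted. RNA was sequenced from 16 tumours that B6MyC-CaP cells formed under the skin of male C57BL/6 mice, which were 6 weeks old at implantation. B6MyC-CaP is a single prostate cancer line, derived from the Hi-MYC transgenic mouse after its transfer to a C57BL/6 background, so every tumour carries the MYC transgene and the same starting cells. The ADF+ENZ mice were put on alternate-day fasting, 24 h without food and then 24 h with free access to it, and also received 20 mg/kg of the antiandrogen enzalutamide by gavage each day. The ENZ mice received the same daily dose and ate normal chow freely. The ADF mice were on the fasting schedule and received no enzalutamide. The Vehicle mice ate normal chow freely and received no enzalutamide. Each group had 4 tumours. Which day of the fasting cycle tumours were taken on is not stated in the labels.

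These receptors sit on DNA and switch genes on or off when a fat-derived molecule fits their ligand pocket. Nr1h4 (FXR) senses bile acids and is best known from liver and intestine, where it induces Nr0b2 (SHP), a receptor without a DNA-binding domain that represses bile acid synthesis. Nr1h3 (LXRα) and Nr1h2 (LXRβ) sense oxysterols and induce cholesterol efflux and lipogenic genes. Nr1h3 is typical of liver, fat and macrophages, while Nr1h2 is found in most tissues. The PPARs respond to fatty acids: Ppara drives fatty acid oxidation in fasted liver, Ppard acts broadly, and Pparg directs fat cell formation and lipid storage. Rxra, Rxrb and Rxrg are the retinoid X receptors, the partners with which FXR, the LXRs and the PPARs bind DNA as pairs.

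The promoters of 3 genes are shown because the results turn on them: Nr1h4 and Nr1h3 were the 2 genes that passed a test, and Nr1h2 is the closest relative of Nr1h3. Each line gives the 250 bases before the RefSeq start, on the minus strand, 5′ to 3′, in build GRCm38.p6. The windows are chr10:89506659-89506908 for Nr1h4, chr2:91195117-91195366 for Nr1h3 and chr7:44553966-44554215 for Nr1h2. Capitals mark matches, on either strand, to 4 motifs chosen after the counts had been seen: the nuclear receptor half-site AGGTCA, the steroid receptor half-site AGAACA, the HNF1 half-site GTTAAT and the ETS site CCGGAAGT.
Nr1h4: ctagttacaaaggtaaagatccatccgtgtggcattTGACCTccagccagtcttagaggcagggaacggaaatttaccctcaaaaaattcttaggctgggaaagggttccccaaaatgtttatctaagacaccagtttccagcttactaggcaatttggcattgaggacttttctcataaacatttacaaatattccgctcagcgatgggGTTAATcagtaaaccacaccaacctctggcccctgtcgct
Nr1h3: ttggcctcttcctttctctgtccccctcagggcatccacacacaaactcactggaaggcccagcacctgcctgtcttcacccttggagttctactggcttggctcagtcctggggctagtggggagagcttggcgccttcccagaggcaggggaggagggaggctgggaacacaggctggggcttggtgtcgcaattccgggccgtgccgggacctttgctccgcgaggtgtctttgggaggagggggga
Nr1h2: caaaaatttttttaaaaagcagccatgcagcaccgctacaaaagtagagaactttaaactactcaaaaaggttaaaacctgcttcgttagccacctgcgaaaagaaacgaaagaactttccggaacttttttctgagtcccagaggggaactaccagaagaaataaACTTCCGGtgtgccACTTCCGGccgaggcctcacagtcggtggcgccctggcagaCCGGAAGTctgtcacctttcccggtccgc
The Nr1h4 window held AGGTCA on the other strand, 214 bases before the start, and GTTAAT 40 bases before it. The Nr1h3 window held none of the 4 motifs, and the Nr1h2 window held the ETS site 3 times, 84, 70 and 29 bases before the start. No window of the 10 genes held AGAACA. Of 32851 promoter windows of this length, 14% held AGGTCA, 16.1% AGAACA, 6.43% GTTAAT and 2.88% CCGGAAGT. These matches describe the letters of the windows only, and the counts do not show which start a transcript used.

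Each library held 10072489 to 25505655 gene counts in ADF+ENZ, 10630096 to 23558532 in ENZ, 12289755 to 16140246 in ADF and 15722655 to 18313259 in Vehicle. ADF libraries stood apart in make-up: 30.3 to 36.7% of their reads lay in no annotated feature, against 21.2 to 26.1% in ADF+ENZ, 24.5 to 27.9% in ENZ and 23.4 to 27.9% in Vehicle. The labelled tissue was checked against 11 epithelial and prostate luminal markers. Krt8 (206.2 to 661 CPM, counts scaled to library size), Foxa1 (32.4 to 70.4 CPM) and Hoxb13 (5.92 to 13.2 CPM) were present in all 16 libraries, whereas Epcam reached at most 0.808 CPM. Fibroblast and macrophage markers were abundant, with Dcn at 2538 to 4895 CPM and Lyz2 at 756 to 1308 CPM. In bulk samples of this kind, fewer cells of a type and less RNA per cell cannot be told apart.

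All levels below are CPM scaled with TMM factors, and levels of different genes are set against each other only as CPM per kilobase of exon. On that scale Nr1h2 was the highest of the 10 in all 16 tumours, at 21.9 ± 1.80 CPM per kb (SD over 16 tumours). Rxrb (14.9 ± 0.984) and Rxra (14.9 ± 1.41) came next and were not separated, since Rxrb lay above Rxra in 9 of 16 tumours. Ppard followed at 7.98 ± 0.919 CPM per kb, below Rxra in every tumour. Nr1h4 averaged 2.56 ± 2.45 CPM per kb, Pparg 1.83 ± 0.703 and Nr1h3 1.74 ± 0.522, and the order of these 3 changed from tumour to tumour. The large SD of Nr1h4 comes from the groups, as it averaged 0.901 ± 0.295 CPM per kb in ADF+ENZ, 0.789 ± 0.422 in ENZ, 1.98 ± 0.484 in ADF and 6.55 ± 0.0671 in Vehicle (SD, n = 4 each). Ppara, at 0.0491 CPM per kb, was at the edge of detection, and Nr0b2 and Rxrg were at or next to 0. A filter on low counts left 7 of the 10 for testing, all except Nr0b2, Ppara and Rxrg.

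Nr1h4 was lower in all 3 treated groups than in Vehicle. Its level was 2.86, 2.06, 1.21 and 2.18 CPM in the ADF+ENZ tumours, 3.22, 1.71, 1.26 and 1.08 CPM in the ENZ tumours, 4.96, 3.08, 4.49 and 5.74 CPM in the ADF tumours, and 14.98, 14.98, 15.1 and 15.3 CPM in the Vehicle tumours. The Vehicle tumours were nearly alike, and every treated tumour lay below all 4 of them; 8.67% of all genes had such ranges, lower and without overlap, in ADF+ENZ, 6.54% in ENZ and 8.55% in ADF. The counts behind these levels were 35, 31, 11 and 54 reads in ADF+ENZ and 36, 25, 21 and 26 in ENZ. They were 62, 52, 57 and 80 in ADF and 252, 262, 230 and 277 in Vehicle, so the relative counting error is larger in the treated tumours. The spread of the Vehicle levels is smaller than the counting error of 230 to 277 reads. Their likeness is therefore no measure of how little tumours vary.

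**Figure D1:**
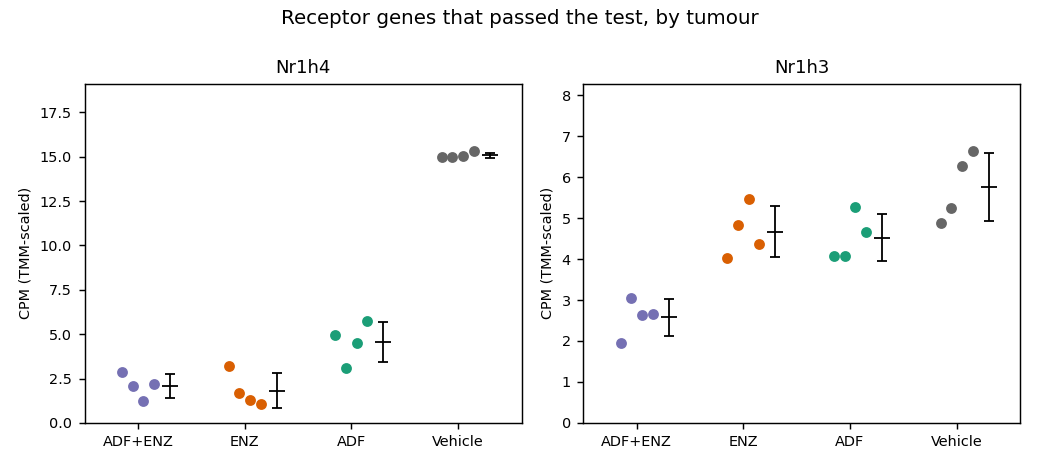
Levels of Nr1h4 and Nr1h3 (y axis, TMM-scaled CPM) in each of 4 tumours per group (x axis); points are tumours, and the bars beside them show the mean ± SD. All 12 treated tumours lie below the 4 Vehicle tumours for Nr1h4, and the 4 ADF+ENZ tumours lie below all others for Nr1h3.

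With enzalutamide alone, Nr1h4 fell by 3.12 on the log2 scale (ENZ against Vehicle, SE 0.274, 95% interval -3.70 to -2.55, adjusted p = 2.37e-06, edgeR's quasi-likelihood test with Benjamini-Hochberg adjustment over 18946 genes). By p-value it ranked 5 of all genes tested. It was the only one of the 7 tested receptors that passed in this comparison, where 3.62% of all genes tested passed with lower levels. The median log2 change of the 7 was -0.17, against 0.014 over all genes. The sum of 10 fibroblast markers was lower in this comparison, at 9710 to 10780 CPM in ENZ against 11260 to 13060 CPM in Vehicle. Dcn and the collagens Col1a1, Col1a2 and Col3a1 made up most of it. Their means were lower in ENZ, as were those of Pdgfra and Thy1. Lum, Pdgfrb, Fap and Dpt went the other way (for Dpt, 28.4 CPM in ENZ and 17.9 CPM in Vehicle). Summed epithelial and prostate luminal markers ran from 499 to 830 CPM in ENZ and from 681 to 913 CPM in Vehicle. The part of either in the Nr1h4 result was not tested.

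With fasting alone, Nr1h4 fell by 1.73 on the log2 scale (ADF against Vehicle, SE 0.249, 95% interval -2.25 to -1.21, edgeR adjusted p = 0.000658). It was again the only one of the 7 to pass, beside 4.96% of all genes passing with lower levels. The median change of the 7 was -0.22, against 0.0088 over all genes. The ADF libraries differ from Vehicle in the share of reads outside features. With that share as a covariate, Nr1h4 still passed (log2 -2.38, edgeR adjusted p = 0.0434) and was 1 of 6 genes in all that did.

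With both treatments, Nr1h4 fell by 2.83 on the log2 scale (ADF+ENZ against Vehicle, SE 0.269, 95% interval -3.39 to -2.27, edgeR adjusted p = 9.28e-06). In this comparison 2 of the 7 receptors passed, Nr1h4 and Nr1h3, both lower, beside 6.53% of all genes. Against ADF, the combination was lower by a further step in Nr1h4 (log2 -1.10, SE 0.278, 95% interval -1.68 to -0.52, edgeR adjusted p = 0.0144), and again 2 of 7 passed, beside 7.54% of all genes passing with lower levels. That call was lost without ADF replicate 4 (log2 -0.97, adjusted p = 0.0585) and with the no-feature covariate (log2 -0.31, adjusted p = 0.9998), under which 0 genes passed in all. Against ENZ, no difference in Nr1h4 passed (log2 0.29, SE 0.300, 95% interval -0.34 to 0.92, edgeR adjusted p = 0.693), and the tumours of the 2 groups overlapped.

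The interaction term is the log2 change of ADF+ENZ against Vehicle minus the sum of the 2 single-treatment changes. For Nr1h4 it was 2.02 (SE 0.390, 95% interval 1.21 to 2.84, edgeR adjusted p = 0.0128), so the combined fall was smaller than the sum of the 2 separate falls. Nr1h4 was the only one of the 7 to pass here, while 2.18% of all genes passed with a positive term. The term stayed between 1.81 and 2.40 and past the threshold when each of the 16 libraries was left out in turn. It did not pass with the no-feature covariate (log2 2.84, adjusted p = 0.251), under which 0 genes in all did. The comparisons with Vehicle share its 4 tumours, so their Nr1h4 values are not independent of each other.

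**Figure D2:**
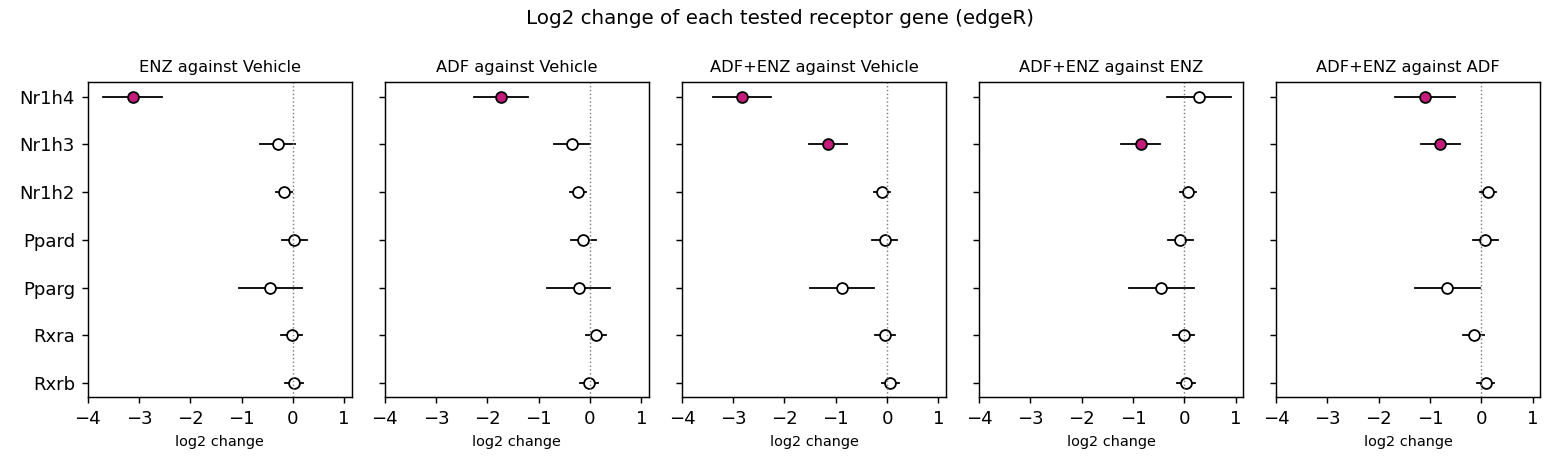
Log2 change (x axis) of each of the 7 tested receptors (rows) in the 5 pairwise comparisons; points are edgeR estimates, lines are 95% intervals, and filled points passed at an adjusted p under 0.05. Nr1h4 lies at -3.12, -1.73 and -2.83 against Vehicle, Nr1h3 passed only where ADF+ENZ is compared, and the other 5 have open points throughout.

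Nr0b2, the corepressor that FXR induces in liver, had 1 read in ADF+ENZ replicate 1, 0 reads in ENZ and ADF, and 1 read in Vehicle replicate 3. A count of 0 over the group allows up to 0.0451 CPM in ENZ and up to 0.0535 CPM in ADF (3 reads over the group, counting error only). The other classical FXR targets were also close to 0. Slc51a, a subunit of the basolateral bile acid exporter, summed to 26 reads in ADF+ENZ, 27 in ENZ, 22 in ADF and 20 in Vehicle, while its partner Slc51b had 3, 3, 0 and 4 reads in the same order of groups. Abcb11, the canalicular bile salt pump, summed to 22, 9, 17 and 26 reads, and Fgf15, the intestinal hormone that reports bile acids to the liver, to 2, 7, 8 and 6. These low counts gave no test of an FXR response. Markers of hepatocytes and enterocytes, 12 genes, summed to no more than 4.41 CPM in any library.

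Several lists of related genes were counted in the same way. Over all genes tested, 5.97% passed higher and 6.53% lower in ADF+ENZ against Vehicle, 1.81% and 3.62% in ENZ against Vehicle, 4.05% and 4.96% in ADF against Vehicle, 0.813% and 0.274% in ADF+ENZ against ENZ, 8.72% and 7.54% in ADF+ENZ against ADF, and 2.18% and 0.918% in the interaction. Of the 28 genes listed as FXR or SHP targets or as part of bile acid synthesis and transport, 9 passed the filter on low counts. In ENZ against Vehicle 1 of the 9 passed higher and 2 lower, in ADF against Vehicle 1 higher and 0 lower, and in ADF+ENZ against Vehicle 1 higher and 2 lower. Against ADF, the combination had 1 higher and 1 lower, and against ENZ and in the interaction 0 of 9 passed. Abcc3, an exporter of conjugated bile acids and drugs, rose in ADF+ENZ to 41.4 ± 4.14 CPM, against 30.1 ± 3.31 CPM in Vehicle (SD, n = 4 each). The log2 change was 0.46 (SE 0.116, edgeR adjusted p = 0.0142). It was as high in ENZ (40.0 ± 7.72 CPM) and ADF (41.6 ± 0.338 CPM). There it also passed against Vehicle (log2 0.42 and 0.47, edgeR adjusted p = 0.0398 and 0.0184). The ENZ call held in 8 of the 16 fits that left out a library, and the ENZ tumours overlapped Vehicle. The ADF call held in 14 of the 16 and was lost with the no-feature covariate (log2 0.56, edgeR adjusted p = 0.344). ADF+ENZ did not differ from ENZ or ADF (log2 0.04 and -0.007, edgeR adjusted p = 0.886 and 0.973). Besides the call of Abcc3 in ADF+ENZ against Vehicle, no call of this list held in all 16 fits that left out a library.

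Nr1h3, the LXR of liver, fat and macrophages, fell in the tumours given both treatments, against each of the other 3 groups. It stood at 1.96, 3.05, 2.63 and 2.67 CPM in the ADF+ENZ tumours, 4.03, 4.85, 5.47 and 4.36 CPM in the ENZ tumours, 4.08, 4.09, 5.28 and 4.66 CPM in the ADF tumours, and 4.87, 5.26, 6.28 and 6.63 CPM in the Vehicle tumours. Every ADF+ENZ tumour lay below every tumour of the other 3 groups, while ENZ and ADF each overlapped Vehicle. Lower ranges without overlap were found for 3.71% of all genes in ADF+ENZ against ENZ and for 9.93% against ADF. The reads behind these levels numbered 24, 46, 24 and 66 in ADF+ENZ, 45, 71, 91 and 105 in ENZ, 51, 69, 67 and 65 in ADF, and 82, 92, 96 and 120 in Vehicle.

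Nr1h3 fell by 1.15 on the log2 scale in ADF+ENZ against Vehicle (SE 0.177, 95% interval -1.52 to -0.78, edgeR adjusted p = 0.000551). It fell by 0.80 against ADF (SE 0.181, 95% interval -1.18 to -0.42, edgeR adjusted p = 0.00862) and by 0.85 against ENZ (SE 0.179, 95% interval -1.23 to -0.48, edgeR adjusted p = 0.0281). Against ENZ it was the only one of the 7 to pass, beside 0.274% of all genes passing with lower levels. The single treatments did not pass: the log2 change was -0.30 in ENZ against Vehicle (SE 0.168, edgeR adjusted p = 0.339) and -0.35 in ADF against Vehicle (SE 0.169, edgeR adjusted p = 0.194). The interaction term did not pass either (log2 -0.50, SE 0.246, 95% interval -1.02 to 0.01, edgeR adjusted p = 0.248), so the combined change was not shown to differ from the sum of the separate ones. The calls against Vehicle and against ADF held in all 16 fits that left out a library. The call against ENZ held in 11, and was lost without ENZ replicate 2 (log2 -0.84, adjusted p = 0.0565), ENZ replicate 3 (-0.77, 0.0923), ENZ replicate 4 (-0.89, 0.0660), ADF+ENZ replicate 1 (-0.75, 0.0857) or ADF+ENZ replicate 3 (-0.87, 0.0997). It was also lost with only the ADF+ENZ and ENZ groups fitted (log2 -0.86, adjusted p = 0.09). With the no-feature covariate the calls against ENZ (log2 -0.84, adjusted p = 0.0689) and ADF (log2 -0.72, adjusted p = 0.9998) were lost, and that against Vehicle was not (log2 -1.13, adjusted p = 0.00165). The 12 macrophage markers summed to 2059 to 2902 CPM in ADF+ENZ, 2041 to 2856 CPM in ENZ, 2241 to 2610 CPM in ADF and 2196 to 3141 CPM in Vehicle, ranges that overlap between all groups. The sum of the 10 fibroblast markers was higher in ADF+ENZ, at 11860 to 13720 CPM, than in ENZ, at 9710 to 10780 CPM. It overlapped between ADF+ENZ and Vehicle. The collagens Col1a1, Col1a2 and Col3a1, with Pdgfra, Dcn and Thy1, had higher means in ADF+ENZ than in ENZ. Lum (9.68 against 13.7 CPM), Fap, Pdgfrb and Dpt had lower ones. The part of macrophages or fibroblasts in the Nr1h3 result was not tested.

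Nr1h2, the widely expressed LXR, was at 69.5 to 84.1 CPM in ADF+ENZ, 65.9 to 78.1 CPM in ENZ, 65.4 to 70.4 CPM in ADF and 76.3 to 81.4 CPM in Vehicle. It passed no comparison. The ADF tumours lay below all Vehicle tumours, as they did for 8.55% of all genes. The log2 change of Nr1h2 in ADF against Vehicle was -0.23 (SE 0.0747, 95% interval -0.39 to -0.07, edgeR adjusted p = 0.0584). Its log2 change was -0.17 in ENZ against Vehicle (edgeR adjusted p = 0.211) and -0.09 in ADF+ENZ against Vehicle (edgeR adjusted p = 0.446). Of its 6 contrasts 3 had an unadjusted p under 0.05, the interaction among them (log2 0.30, SE 0.106, unadjusted p = 0.00954, edgeR adjusted p = 0.108).

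The make-up of the LXR pair was compared as well. Nr1h3 contributed 4.41% ± 0.875 of the pair's CPM per kb in ADF+ENZ, against 8.13% ± 1.51 in ENZ, 8.16% ± 1.14 in ADF and 8.77% ± 1.003 in Vehicle (SD, n = 4 each). The ADF+ENZ tumours, at 3.41 to 5.37%, lay below every tumour of the other groups. By exact permutation over the 70 assignments of 4 against 4, two-sided, each of these 3 differences had p = 0.0286, which is the lowest value possible, and 0.107 after Benjamini-Hochberg adjustment over 15 tests of family shares, so none passed. With this lowest p, a share could pass only if most of the 15 tests reached it. The adjusted test therefore cannot decide whether these shares differ.

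**Figure D3:**
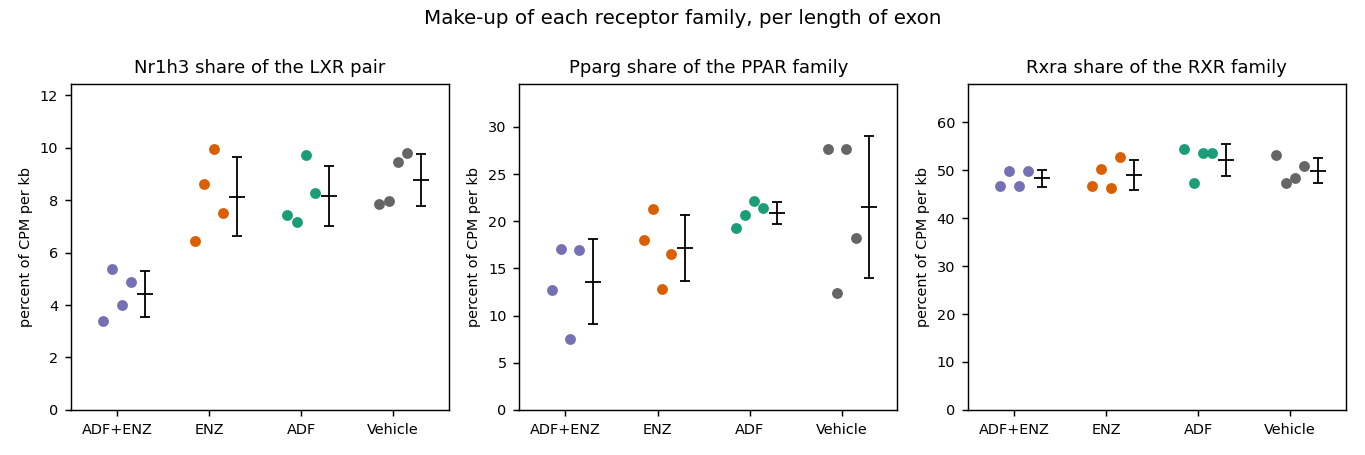
Share of one receptor in its family (y axis, percent of the family's summed CPM per kb) in each of 4 tumours per group (x axis), with the mean ± SD beside them; the families are the 2 LXRs, the 3 PPARs and the 3 RXRs. The Nr1h3 share lies at 3.41 to 5.37% in ADF+ENZ, below all other tumours, while the Rxra share averages 48.3 to 52.2% in every group.

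LXR target genes that passed went both ways in some comparisons and 1 way in others. Of 24 listed targets 20 were tested. With both treatments against Vehicle, 3 passed higher and 2 lower, with a median log2 change of 0.013 over the 20, against 0.000125 over all genes. Of these 5 calls 3 held in all 16 fits that left out a library. In ENZ against Vehicle 1 passed higher and 1 lower, in ADF against Vehicle 0 higher and 3 lower, in ADF+ENZ against ENZ 2 higher and 0 lower, in ADF+ENZ against ADF 2 higher and 1 lower, and in the interaction 3 higher and 0 lower. Over all genes, 5.97% passed higher and 6.53% lower in ADF+ENZ against Vehicle. These shares were 1.81% and 3.62% in ENZ against Vehicle and 4.05% and 4.96% in ADF against Vehicle. They were 0.813% and 0.274% in ADF+ENZ against ENZ, 8.72% and 7.54% in ADF+ENZ against ADF, and 2.18% and 0.918% in the interaction. The classical targets Abca1 and Abcg1 (cholesterol efflux pumps), Srebf1 (the lipogenic transcription factor) and Mylip (which degrades the LDL receptor) passed in 0 of 24 tests over the 6 comparisons with edgeR. Their lowest adjusted p was 0.0692, and 4 of the 24 had an unadjusted p under 0.05. Abca1, for example, averaged 326.5 ± 46.8 CPM in ADF+ENZ and 283.8 ± 26.8 CPM in Vehicle (SD, n = 4 each). These 4 were named for their role, with their values known.

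Apoe, the lipoprotein gene that LXR induces in macrophages, rose in ADF+ENZ to 2273 ± 143 CPM, against 1367 ± 277.5 CPM in Vehicle (log2 0.73, SE 0.146, edgeR adjusted p = 0.0037). It averaged 1978 ± 259 CPM in ENZ and 1890 ± 367 CPM in ADF. In ENZ against Vehicle it also passed (log2 0.53, edgeR adjusted p = 0.0384), a call that held in 10 of the 16 fits leaving out a library. Mertk, a receptor by which macrophages take up dying cells, also rose in ADF+ENZ against Vehicle (log2 0.52, edgeR adjusted p = 0.0103). Tnfaip3, a brake on NF-κB signalling, fell to 17.1 ± 1.45 CPM in ADF+ENZ, against 24.7 ± 1.54 CPM in ADF and 26.2 ± 1.94 CPM in Vehicle (log2 -0.61 against Vehicle, edgeR adjusted p = 0.00122). Npc1, which releases cholesterol from lysosomes, fell in ENZ against Vehicle (log2 -0.44, edgeR adjusted p = 0.0107). Scd2, a fatty acid desaturase, fell in ADF against Vehicle (log2 -0.66, edgeR adjusted p = 0.00326), and its relative Scd1 rose in ADF+ENZ against ADF (log2 0.59, edgeR adjusted p = 0.00506). With the no-feature covariate the Scd2 and Scd1 calls were lost (log2 -0.46 and 0.25, adjusted p = 0.441 and 0.9998), as was that of Tnfaip3 against ADF (log2 -0.33, adjusted p = 0.9998).

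Genes that make or clear the ligands of LXR and of the retinoid receptors had more falls than rises under the combination. Of 27 listed genes 20 were tested, and in ADF+ENZ against Vehicle 1 passed higher and 6 lower, with a median log2 change of -0.30. Of these 7 calls 1, that of Ch25h, held in all 16 fits that left out a library. The other comparisons had 2 higher and 2 lower (ENZ against Vehicle), 2 higher and 0 lower (ADF against Vehicle), 0 higher and 1 lower (ADF+ENZ against ENZ), and 1 higher and 0 lower (both ADF+ENZ against ADF and the interaction). Ch25h, which makes the LXR ligand 25-hydroxycholesterol, fell in ADF+ENZ to 0.686 ± 0.379 CPM, against 2.96 ± 0.794 CPM in Vehicle (SD, n = 4 each; log2 -2.21, SE 0.497, edgeR adjusted p = 0.00872). Dhrs9, a retinol dehydrogenase, fell in ENZ against Vehicle (log2 -0.99, edgeR adjusted p = 0.00278). Cyp46a1, which makes 24-hydroxycholesterol and is best known from brain, rose in ADF against Vehicle (log2 1.19, edgeR adjusted p = 0.00855), a call lost with the no-feature covariate (log2 0.56, adjusted p = 0.658). Crabp2, a carrier that hands retinoic acid to its receptor, rose in ADF+ENZ against ADF (log2 0.74, edgeR adjusted p = 0.0114), a call lost with the covariate as well (log2 0.51, adjusted p = 0.9998).

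No PPAR gene passed a test. Ppard, the most abundant, was at 48.5 to 67.9 CPM in ADF+ENZ, 51.5 to 70.7 CPM in ENZ, 49.6 to 63.5 CPM in ADF and 57.5 to 66.1 CPM in Vehicle. Its log2 changes lay between -0.13 and 0.08, the 95% intervals of its 5 pairwise changes reached no further than -0.37 and 0.32, its lowest edgeR adjusted p was 0.51, and 0 of its 6 contrasts had an unadjusted p under 0.05. Ppara summed to 14 reads in ADF+ENZ, 5 in ENZ, 12 in ADF and 18 in Vehicle. When the filter on low counts was dropped, its largest change among comparisons with Vehicle was -1.71 on the log2 scale in ENZ (SE 0.807, edgeR adjusted p = 0.375), so a difference was not detectable at this depth.

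Pparg, the fat cell and macrophage PPAR, stood at 3.59, 3.92, 2.19 and 4.85 CPM in the ADF+ENZ tumours, 4.47, 6.48, 3.91 and 5.52 CPM in the ENZ tumours, 4.72, 5.15, 7.17 and 6.67 CPM in the ADF tumours, and 9.15, 3.49, 10.01 and 5.08 CPM in the Vehicle tumours. The Vehicle tumours were split, with 2 high and 2 within the range of the treated groups. Its log2 change in ADF+ENZ against Vehicle was -0.89 (SE 0.296, 95% interval -1.51 to -0.26, edgeR adjusted p = 0.0571), which did not pass. It passed when Vehicle replicate 2, the lowest of its group, was left out (log2 -1.11, adjusted p = 0.0108), when ADF+ENZ replicate 4 was left out (log2 -1.07, adjusted p = 0.0436), and in DESeq2 (log2 -0.91, adjusted p = 0.0238). Against ADF the change was -0.66 (SE 0.300, edgeR adjusted p = 0.133). The 10 adipocyte markers, led by Lipe at 8.11 to 20.5 CPM, summed to 10.3 to 26.4 CPM in ADF+ENZ, 14.3 to 35.2 CPM in ENZ, 25.7 to 32.9 CPM in ADF and 15.9 to 31.7 CPM in Vehicle. Defining fat cell genes were near 0, with Adipoq at no more than 0.601 CPM and Plin1 at no more than 0.773 CPM in any library. The part of fat cells in the Pparg values was not tested. Pparg made up 13.6% ± 4.51 of the PPAR family's CPM per kb in ADF+ENZ, 17.2% ± 3.52 in ENZ, 20.9% ± 1.20 in ADF and 21.5% ± 7.50 in Vehicle (SD, n = 4 each). The ADF+ENZ tumours lay below all ADF tumours in this share and overlapped the other 2 groups. The difference from ADF did not pass (exact permutation p = 0.0286, adjusted p = 0.107 over the same 15 tests, with the same limit).

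**Figure D4:**
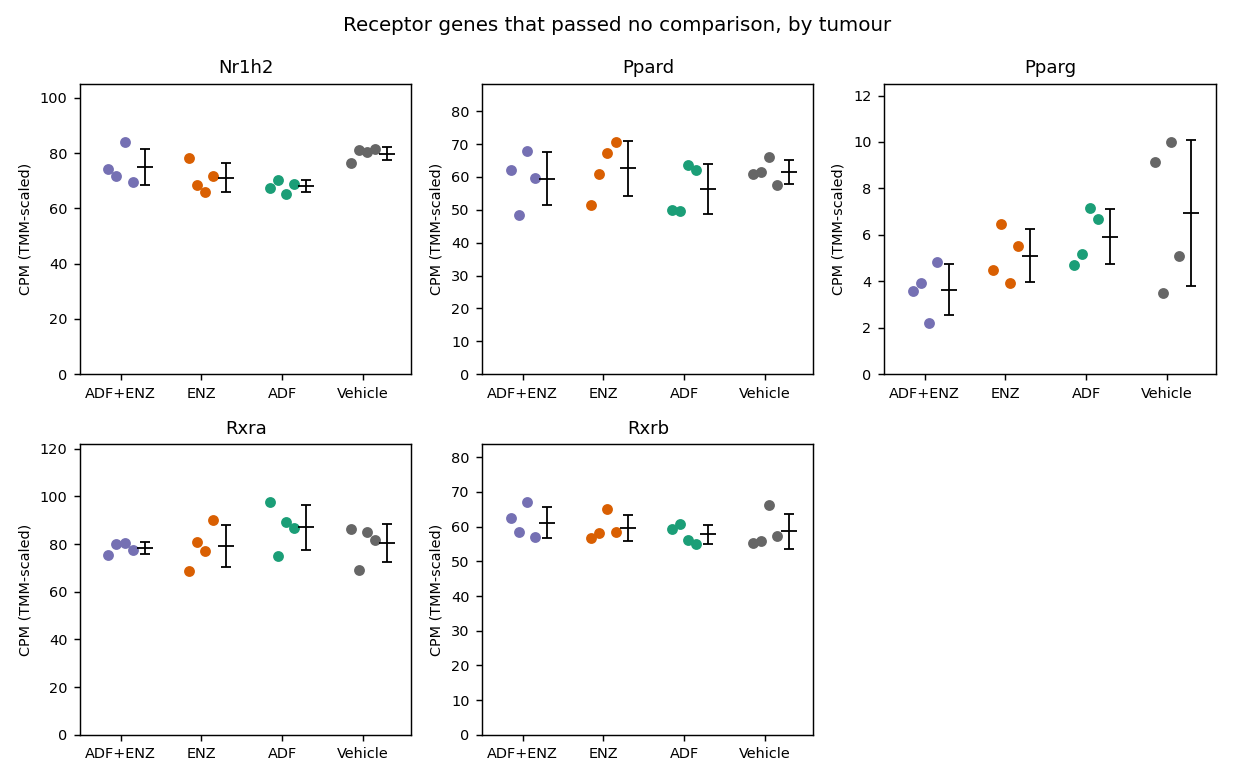
Levels of the 5 tested receptors that passed no comparison (y axis, TMM-scaled CPM) in each of 4 tumours per group (x axis), with the mean ± SD beside them. Nr1h2, Ppard, Rxra and Rxrb stay within 48.5 to 97.5 CPM in all 16 tumours, whereas Pparg spreads from 3.49 to 10.01 CPM within Vehicle alone.

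PPAR target genes passed with edgeR in each pairwise comparison and not in the interaction. Of 44 listed targets 30 were tested. Against Vehicle, ADF+ENZ had 3 higher and 2 lower, in ADF against Vehicle 2 higher and 2 lower, in ENZ against Vehicle 1 higher and 1 lower, in ADF+ENZ against ENZ 2 higher and 0 lower, in ADF+ENZ against ADF 3 higher and 0 lower, and in the interaction 0. Calls that held in all 16 fits leaving out a library numbered 2 of 5 in ADF+ENZ against Vehicle, 1 of 4 in ADF against Vehicle, 0 of 2 in ENZ against Vehicle, 1 of 2 in ADF+ENZ against ENZ and 0 of 3 in ADF+ENZ against ADF. The count of the last comparison was 1 with upper-quartile factors, 1 with no filter, 5 in limma-voom and 0 with the no-feature covariate. DESeq2 and limma-voom each called 5 in ENZ against Vehicle, and 3 and 1 in the interaction. The median log2 change of the 30 was -0.029 in ADF+ENZ against Vehicle. Ucp2, a mitochondrial carrier induced by fatty acids, had the clearest rise. It averaged 289.3 ± 22.3 CPM in ADF+ENZ, 197.6 ± 12.7 CPM in ENZ, 283.7 ± 21.9 CPM in ADF and 157.8 ± 13.8 CPM in Vehicle (SD, n = 4 each). The log2 change was 0.87 in ADF+ENZ against Vehicle (SE 0.0856, edgeR adjusted p = 9.28e-06), 0.85 in ADF against Vehicle (SE 0.0856, edgeR adjusted p = 8.11e-05) and 0.55 in ADF+ENZ against ENZ (SE 0.0852, edgeR adjusted p = 0.00698), and all 3 passed with the no-feature covariate too.

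Cpt1a, whose product carries long-chain fatty acids into mitochondria, rose in ADF+ENZ against Vehicle (log2 0.65, SE 0.118, edgeR adjusted p = 0.00187). It averaged 324 CPM in ADF+ENZ, 201.5 in ENZ, 289 in ADF and 206 in Vehicle. It also passed in ADF against Vehicle (log2 0.49, edgeR adjusted p = 0.0165) and in ADF+ENZ against ENZ (log2 0.69, edgeR adjusted p = 0.0107). Neither of these 2 calls held in all 16 fits, and the ADF call was lost with the no-feature covariate (log2 0.65, adjusted p = 0.264). Other classical targets, named for their role with their values known, did not pass. Angptl4, the fasting-induced inhibitor of lipoprotein lipase, averaged 183 ± 49.2 CPM in ADF+ENZ, 66.5 ± 33.4 CPM in ENZ, 156 ± 31.2 CPM in ADF and 79.8 ± 34.1 CPM in Vehicle (SD, n = 4 each). Its log2 change was 1.20 in ADF+ENZ against Vehicle (SE 0.377, edgeR adjusted p = 0.0551) and 1.47 in ADF+ENZ against ENZ (SE 0.381, edgeR adjusted p = 0.0861). Cd36, a fatty acid transporter and Pparg target, averaged 10.6 ± 4.32 CPM in ADF+ENZ and 27.6 ± 21.2 CPM in Vehicle (log2 -1.36, SE 0.571, edgeR adjusted p = 0.139). Plin2, a lipid droplet coat protein, averaged 199 ± 22.3 CPM in ADF+ENZ and 200.5 ± 92.95 CPM in Vehicle.

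Of 20 listed genes that supply PPAR ligands or handle fatty acids, 18 were tested. In ADF+ENZ against Vehicle and in ADF against Vehicle alike 1 passed higher and 3 lower. In ENZ against Vehicle 0 passed higher and 1 lower, in ADF+ENZ against ENZ and in the interaction 1 higher and 0 lower each, and in ADF+ENZ against ADF 1 higher and 1 lower. Acsl3, which activates long-chain fatty acids, fell to 24.4 ± 4.26 CPM in ADF+ENZ and 23.8 ± 3.24 CPM in ADF, against 46.7 ± 10.2 CPM in Vehicle (SD, n = 4 each). The log2 change was -0.93 in ADF+ENZ (SE 0.155, edgeR adjusted p = 0.00122) and -0.97 in ADF (SE 0.155, edgeR adjusted p = 0.00134). The ADF call was lost with the no-feature covariate (log2 -1.11, adjusted p = 0.171). Cyp2j6, an arachidonic acid epoxygenase, rose in ADF+ENZ against ADF (log2 0.90, edgeR adjusted p = 0.00142), also lost with the covariate (log2 0.46, adjusted p = 0.9998).

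The shared partners Rxra and Rxrb passed no test. Rxra was at 75.4 to 80.5 CPM in ADF+ENZ, 68.6 to 90.0 CPM in ENZ, 74.8 to 97.5 CPM in ADF and 69.0 to 86.3 CPM in Vehicle, and Rxrb at 56.9 to 66.9, 56.7 to 65.1, 54.8 to 60.7 and 55.2 to 66.2 CPM in the same order of groups. Groups overlapped for both genes in every comparison, and 0 of the 6 contrasts of either gene had an unadjusted edgeR p under 0.05. The 95% intervals of the 5 pairwise log2 changes lay between -0.35 and 0.31 for Rxra and between -0.19 and 0.25 for Rxrb. Rxrg, the RXR of muscle and brain, had 0 reads in all 16 tumours, which allows up to 0.0119 CPM (3 reads over all libraries). Rxra made up 48.3% ± 1.82 of the family's CPM per kb in ADF+ENZ, 49.1% ± 3.08 in ENZ, 52.2% ± 3.33 in ADF and 49.95% ± 2.65 in Vehicle (SD, n = 4 each), and the lowest exact permutation p among its 5 comparisons was 0.0857.

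Among 15 other receptors that pair or compete with RXRs, 13 were tested. In ADF+ENZ against Vehicle 2 passed lower, in ENZ against Vehicle and in ADF+ENZ against ADF 1 lower each, and 0 passed higher in any of the 6 comparisons. Thrb, a thyroid hormone receptor, fell to 7.94 ± 2.12 CPM in ADF+ENZ, against 17.2 ± 2.95 CPM in Vehicle (SD, n = 4 each; log2 -1.09, SE 0.181, edgeR adjusted p = 0.00107).

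Of 20 coregulators, the proteins that nuclear receptors recruit to activate or silence genes, 19 were tested. The combination against Vehicle had 4 higher and 2 lower, in ADF+ENZ against ADF 3 higher and 1 lower, in ADF against Vehicle 1 higher and 1 lower, in ENZ against Vehicle 0 higher and 1 lower, and in ADF+ENZ against ENZ and in the interaction 1 higher and 0 lower each. Nrip1 (RIP140), a corepressor of many nuclear receptors in metabolic tissue, fell in all 3 treated groups. It averaged 129.7 ± 22.95 CPM in ADF+ENZ, 124 ± 13.4 CPM in ENZ, 127 ± 8.56 CPM in ADF and 194 ± 32.0 CPM in Vehicle (SD, n = 4 each). The log2 change against Vehicle was -0.58 in ADF+ENZ (edgeR adjusted p = 0.00585), -0.64 in ENZ (edgeR adjusted p = 0.0049) and -0.61 in ADF (edgeR adjusted p = 0.00678). With the no-feature covariate the ADF call of Nrip1 did not pass, though its log2 change was close to that without it (-0.59, adjusted p = 0.358). Tbl1xr1, a subunit of corepressor complexes, and the arginine methyltransferase Prmt1 rose in ADF+ENZ against Vehicle (log2 0.41 and 0.53, edgeR adjusted p = 0.0117 and 0.00726). Ncoa3, a steroid receptor coactivator, fell in ADF+ENZ against ADF (log2 -0.42, edgeR adjusted p = 0.0113), and did not pass with the covariate (log2 -0.33, adjusted p = 0.9998), under which 0 genes passed in that comparison.

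**Figure D5:**
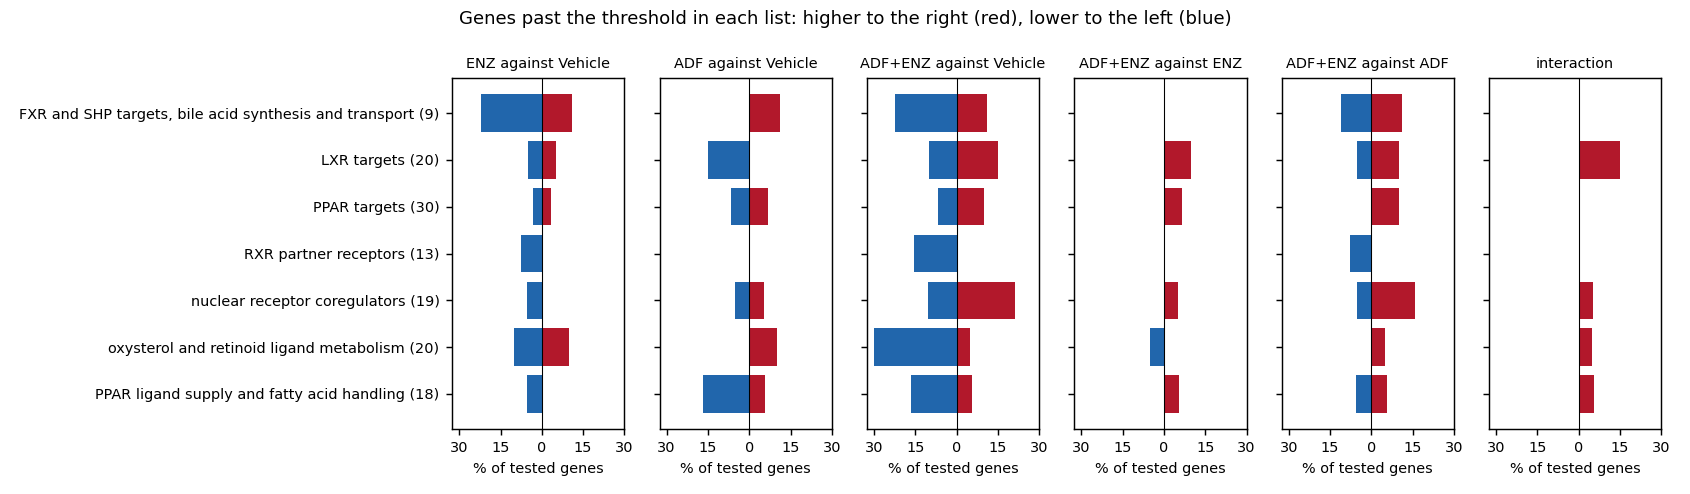
Percent of the tested genes of each list (rows, with the number tested in brackets) that passed at an edgeR adjusted p under 0.05 in the 5 pairwise comparisons and the interaction; red bars to the right are higher and blue bars to the left are lower. Oxysterol and retinoid ligand genes have the longest bar of the plot, 6 of 20 lower in ADF+ENZ against Vehicle, and lists of about 9 to 30 genes make each bar coarse.

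The genes whose levels ran most like those of the 2 receptors that passed were sought among 16052 named genes over the 16 tumours, as a description. For Nr1h4 they were Serpina3m (Pearson's r 0.97 on log2 CPM, and 0.83 after group means were removed), Serpina3n (0.97 and 0.78) and Smim1 (0.95 and 0.76). Serpina3n averaged 13.9 ± 4.09 CPM in ADF+ENZ, 13.9 ± 7.05 CPM in ENZ, 30.9 ± 8.56 CPM in ADF and 73.3 ± 13.03 CPM in Vehicle (SD, n = 4 each) and was, like Nr1h4, highest in Vehicle and next highest in ADF. The Serpina3 genes are close paralogs whose reads may be shared. For Nr1h3 they were Pcx (r 0.89, and 0.59 after group means were removed), Uhrf2 (0.88 and 0.58) and Apip (0.87 and 0.43). Nr1h4 and Nr1h3 themselves had r 0.54 over the 16 tumours and -0.29 once group means were removed. The tumours share their group means and sequencing depth in these values.

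Neighbouring genes gave a check on whether a wider stretch of chromosome moved. Of the 6 nearest tested protein-coding genes around Nr1h4, 0 passed in ENZ against Vehicle with edgeR, 1 passed lower in ADF against Vehicle (Arl1, log2 -0.49, adjusted p = 0.00114), and 1 passed higher and 1 lower in ADF+ENZ against Vehicle. Arl1 also passed, higher, in ADF+ENZ against ADF (log2 0.42, edgeR adjusted p = 0.00332) and in the interaction (0.46, edgeR adjusted p = 0.0315), where the Nr1h4 term was positive too, and 0 of the 6 passed in ADF+ENZ against ENZ. The adjacent Slc17a8, a vesicular glutamate transporter, was the lower one in ADF+ENZ against Vehicle (log2 -1.57, SE 0.482, edgeR adjusted p = 0.0387), with values of -1.52 in ENZ (adjusted p = 0.0628) and -1.21 in ADF (adjusted p = 0.102). Of the 6 around Nr1h3, Spi1 was lower in ADF+ENZ against Vehicle (log2 -0.40, edgeR adjusted p = 0.0484) and Madd in ADF+ENZ against ADF (log2 -0.68, edgeR adjusted p = 0.0103), and none passed in the other 4 comparisons. These neighbours were named after their values were seen. Annotated genes that overlap Nr1h3 and Pparg held 16 to 30 reads each over all 16 tumours.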

How the data were processed

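Total RNA of 16 tumours was sequenced in paired ends. The values deposited by the authors are raw counts, one per gene and tumour. Tools listed in the submitters' processing notes, with no version, are HISAT2, Trim Galore, DESeq2 and featureCounts, and the builds listed are GRCh38 and mm39, with no role. Whether counting used strand is not stated. The 5 entries that name no gene, 43.5 to 53.1% of reads, were kept out of library sizes and tests. Symbols were found for 52081 of 55414 gene IDs in an annotation of GRCm38, used for names, exon length and neighbours only; IDs without a symbol held 3.51% of counts. Promoter sequences are from RefSeq, and all 10 genes matched.

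Counts of all 16 libraries were fitted with the robust quasi-likelihood method of edgeR 4.0.16 under R 4.3.3, TMM factors and filterByExpr (minimum count 10, total 15), which left 18946 genes. In each of 6 contrasts p-values were adjusted by Benjamini-Hochberg over all genes, with a threshold of 0.05. Log2 CPM used a prior count of 2. Alternatives were DESeq2 1.42.0, limma-voom (limma 3.58.1), other size factors and filters, only the groups compared, a covariate for the percent of no-feature reads, and leaving out each library. The 24 replicate pairs differed by more than counting error (chi-square per degree of freedom 5.79 to 38.6). The labels do not state that each tumour came from its own mouse, so the p-values reflect how these samples vary, which may be technical. Intervals are 95% intervals of the fit, and floors of 3 reads cover counting error only.

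The receptors, the 7 pathway lists, the 9 marker lists and the tests were chosen with earlier results of these data known, so no count over them is independent support. In each list, the genes with the smallest adjusted p and a mean of at least 1 CPM, up to 4 per comparison, could be named, and the text names those that also passed in all 16 fits leaving out a library, besides the classical targets. Some genes that this rule names are not reported here. The pipeline was tested on simulated counts. Plots were made in Python 3.11.15 with matplotlib 3.10.9.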

Additional observations from a re-analysis of the deposited data

Results flagged for a closer look

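One result stood out because the effect of enzalutamide differed between diets by a test of the difference itself. The interaction term of Nr1h4 was 2.02 (log2, SE 0.390, edgeR adjusted p = 0.0128). It did not pass with the no-feature covariate (log2 2.84, edgeR adjusted p = 0.251), under which 0 genes in all did. With fasting, the change of ADF+ENZ against ADF was -1.10, and with free feeding the change of ENZ against Vehicle was -3.12. The call against ADF was lost with that covariate (log2 -0.31, edgeR adjusted p = 0.9998). It was also lost without ADF replicate 4 (log2 -0.97, edgeR adjusted p = 0.0585). Nr1h4 averaged 2.08 ± 0.679 CPM in ADF+ENZ, 1.82 ± 0.972 CPM in ENZ, 4.57 ± 1.12 CPM in ADF and 15.1 ± 0.154 CPM in Vehicle (SD, n = 4 each). The Vehicle SD is smaller than the counting error of its reads. No tumour lay apart from the other 3 of its group in any of the 28 sets of 4 values of the 7 tested receptors by Dixon's test.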

How the results depend on the processing

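No paired analysis was possible because the tumour numbers in the labels are not shared between groups. No change of a receptor reversed its direction once called. In ADF against Vehicle the number of receptors passing was 2 in DESeq2 and 2 in limma-voom, with Nr1h2 added (log2 -0.24 in both, adjusted p = 0.0207 and 0.0295), and 1 to 2 when each library was left out (Nr1h2 passed without ENZ replicate 1 or ADF+ENZ replicate 3). In the interaction it was 2 in DESeq2, with Nr1h2 added (log2 0.32, adjusted p = 0.0435). In ADF+ENZ against ENZ it was 0 with only those 2 groups fitted (Nr1h3 log2 -0.86, adjusted p = 0.09), 0 with the no-feature covariate (log2 -0.84, adjusted p = 0.0689) and 0 to 1 when each library was left out. In ADF+ENZ against ADF it was 0 with the covariate and 1 to 2 when each library was left out, and in the interaction 0 with the covariate; why was not tested. Over all genes, the interaction had 587 calls, 365 with upper-quartile factors and 1363 in DESeq2; ENZ against Vehicle had 1028, 1594 in DESeq2 and 1680 in limma-voom; ADF+ENZ against ENZ had 206, 693 in DESeq2, 54 with only those groups and 43 with the covariate. With the covariate, ADF against Vehicle had 6 calls in place of 1707, ADF+ENZ against Vehicle 1579 in place of 2369, and ADF+ENZ against ADF 0 in place of 3081. Counts of calls in the 7 pathway lists moved by over 1.5 times in 91 of the combinations of list, comparison and other setting and not in 238, and in 179 against 493 when a library was left out. Since no-feature reads separate ADF from the other groups, the covariate overlaps with fasting alone. Depth limits Nr1h4 and Nr1h3, with 11 to 80 reads of Nr1h4 in a treated tumour and 24 to 120 of Nr1h3 in any tumour, and leaves Nr0b2, Ppara and Rxrg untested.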
